A study of Mus musculus with 4 samples.

Results

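Egr1, Egr4 and Npas4 are immediate early genes, a class that neurons switch on within minutes of electrical activity. The 3 were taken by symbol from a deposited table of 5282 mouse genes, and all 3 had a row. RNA was measured in corpus callosum with cortex at postnatal day 15, in 2 Pdgfra-creER;SmoM2 samples (SmoM2) and 2 wild type samples (WT), and all 4 had been given tamoxifen between postnatal days 5 and 7. SmoM2 is an always-active form of Smoothened, the transducer of the hedgehog signal. The recombinase that turns it on is driven by Pdgfra, a gene of oligodendrocyte precursors and fibroblasts rather than of neurons, and the labels give no further allele for WT. The table lists only genes with an unadjusted p below 0.05 in the authors' comparison of these samples (the highest is 0.049997), so a row is itself a selection.

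Synaptic calcium entry activates kinases and the transcription factors CREB, SRF and MEF2, which already sit on immediate early promoters. The proteins made from these genes then regulate a later set of genes, many of which act at synapses. Egr1 and Egr4 encode zinc finger factors of the same family, of which Egr1 is widely used to map active neurons. Npas4 encodes a basic helix-loop-helix PAS factor that is largely restricted to neurons and responds selectively to calcium influx.

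In GRCm38, Egr1 (ENSMUSG00000038418) lies on chromosome 18 from 34859823 to 34864984 on the plus strand. Egr4 (ENSMUSG00000071341) lies on chromosome 6 from 85511121 to 85513589 and Npas4 (ENSMUSG00000045903) on chromosome 19 from 4984355 to 4990316, both on the minus strand. The first annotated coding transcript has 2 exons for Egr1, 2 for Egr4 and 8 for Npas4. No other gene of the GENCODE M21 annotation overlapped any of the 3.

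Promoter sequence was read for Egr4 and Npas4, the members for which it was available. The sequences come from RefSeq (GRCm38.p6), in which 2 of the 3 genes were matched, Egr1 being the other. They are written 5′ to 3′ along the gene, and capitals mark matches on either strand to TGACG, the core that CREB family factors bind, and matches to a TATA box. A match on the opposite strand reads CGTCA here. The Egr4 line is the 250 bases before the start site, chr6:85513590-85513839, minus strand. The Npas4 line is 30 bases, chr19:4990125-4990154, minus strand, which GENCODE M21 places within the longest Npas4 transcript's 5′ UTR.

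Egr4: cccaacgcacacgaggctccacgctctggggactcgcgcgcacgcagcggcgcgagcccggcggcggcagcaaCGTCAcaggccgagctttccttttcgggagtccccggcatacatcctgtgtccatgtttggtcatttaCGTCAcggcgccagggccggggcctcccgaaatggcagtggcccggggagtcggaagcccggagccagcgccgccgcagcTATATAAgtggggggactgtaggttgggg

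Npas4: tcgaCGTCAcgggaTGACGtcggaagtctg

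Both windows of 250 bases before the RefSeq start held TGACG in 2 places. In Egr4 the matches began 177 and 109 bases before the start, both on the opposite strand, and in Npas4 they began 179 bases before it on the opposite strand and 169 bases before it on the gene's strand. The TATA box match, TATATAA, began 29 bases before the start in Egr4 and 28 bases before it in Npas4. Of all 32851 promoter windows of this length, 17.8% held TGACG and 3.04% held TATATAA on either strand. The 8-base palindrome TGACGTCA, the CArG box that SRF binds, and GCGTGGGCG and GCGGGGGCG, which EGR proteins bind, matched in neither window. They were present in 1.55%, 1.47%, 0.536% and 2.57% of all windows, in that order. Matches to TGACGTCA include TGACG. A match is a run of letters and not an observed binding site.

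The expression levels were treated as scaled per gene length and per library, which was not tested. The sources used here do not say whether they are TPM or FPKM. "Rose" and "fell" mark genes whose adjusted p in the authors' deposited table was not above 0.05, which holds for 37.3% of the listed genes (21.3% higher and 16.0% lower in SmoM2). The labels do not say that samples were separate animals, so p-values measure the spread between these samples, which may be technical. The listed levels of a sample added up to 469062 at the lowest and 512833 at the highest, and read depth is unknown. Most genes used as olfactory bulb markers stood apart in SmoM2 replicate 1, where the 8 summed to 174.8 against 99.4 to 114.2 in the other samples. Doc2g read 21.44 there against 3.93 in SmoM2 replicate 2 and 2.44 and 2.55 in WT. Meis2 read 81.32 against 55.39 and 49.55 and 48.37 in the same order. Etv1 went the other way and was lowest in that sample, at 23.12. Choroid plexus markers, 8 genes, summed to 152.9 in SmoM2 replicate 1 and 727.0 in SmoM2 replicate 2, against 1369 and 1404 in WT. Most of this difference was Ttr alone, at 71.24 and 618.04 in SmoM2 against 1202.66 and 1162.48 in WT. Enpp2, the next in level, read 75.24 and 96.07 against 145.49 and 215.29. The 8 meningeal fibroblast markers with a row summed to 993.8 in WT replicate 1 and 373.7 in WT replicate 2, against 1778 and 1838 in SmoM2. Most of these sums was Ptgds, at 933.18 and 312.88 in WT and 1641.07 and 1727.5 in SmoM2. Other markers of the list differed in both directions between WT replicates 1 and 2. Slc6a13 read 4.73 and 2.39 there, and Fn1 16.15 and 25.18.

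Egr1 read 86.58 and 89.71 in SmoM2 replicates 1 and 2, and 107.1 and 122.86 in WT replicates 1 and 2. Both SmoM2 samples were below both WT samples, and the WT samples were the more spread pair. Egr1 fell, with a mean of 88.1 ± 2.21 in SmoM2 against 115 ± 11.1 in WT (SD, n = 2 per group). In the authors' deposited table its log2 fold change was -0.42 (adjusted p = 0.00295). On the log2(level + 1) scale the difference was -0.38 ± 0.10 (SE, limma). In bulk tissue, fewer cells that express a gene and less RNA per cell cannot be told apart.

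Egr4 moved the other way. Its level was 52.56 and 54.14 in the 2 SmoM2 samples but 32.55 and 36.57 in the 2 WT samples, so again the groups did not overlap. Egr4 rose, with a mean of 53.4 ± 1.12 in SmoM2 against 34.6 ± 2.84 in WT (SD, n = 2 per group), which is 54.4% above WT. The authors' deposited table has it at a log2 fold change of 0.55 (adjusted p = 0.000108), and the limma log2 difference was 0.61 ± 0.11 (SE).

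Npas4 had the lowest level and the widest spread of the 3. Its level was 6.3 and 3.55 in SmoM2 against 6.07 and 10.9 in WT. SmoM2 replicate 1 was above WT replicate 1, so the groups overlapped, whereas the groups of 84.7% of listed genes did not; 33.9% of listed genes both passed and had no overlap, as Egr1 and Egr4 did. The mean was 4.93 ± 1.94 in SmoM2 against 8.49 ± 3.42 in WT (SD, n = 2 per group), and the limma log2 difference was -0.67 ± 0.33 (SE). Npas4 fell by the authors' deposited table, with a log2 fold change of -0.82 (adjusted p = 0.000325). The higher sample of a group was 1.77 times the lower in SmoM2 and 1.80 times in WT for Npas4, against 1.04 and 1.15 times for Egr1 and 1.03 and 1.12 times for Egr4.

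**Figure D1:**
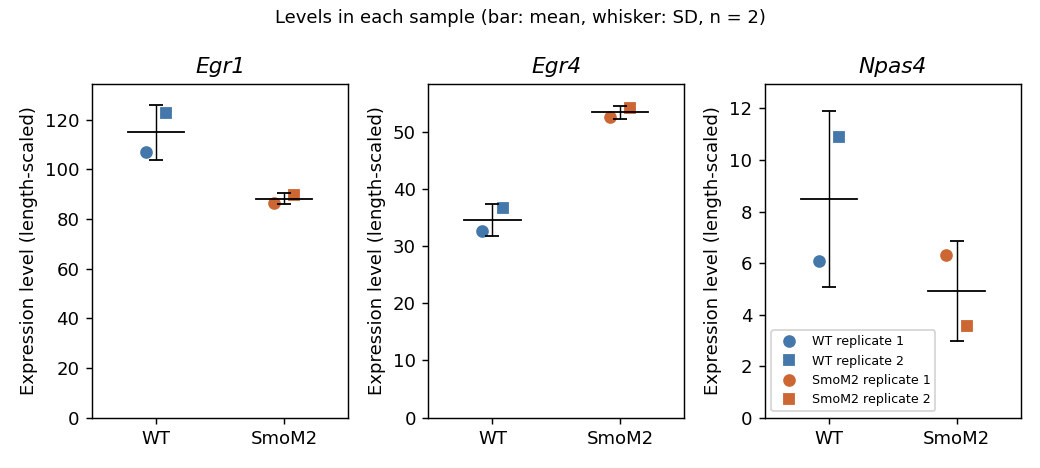
Expression level (y axis, treated as length-scaled) of Egr1, Egr4 and Npas4 in WT and SmoM2. Each sample is 1 point, with a bar at the group mean and whiskers of 1 SD (n = 2). The groups separate for Egr1, lower in SmoM2, and for Egr4, higher in SmoM2, and overlap for Npas4.

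A second fit was made from the levels alone, with adjustment over the 57010 tests that the authors' adjusted p-values imply. None of the 3 passed it (limma, adjusted p of 0.485 for Egr1, 0.268 for Egr4 and 1 for Npas4), as was the case for all but 6 of the 4845 genes fitted (0.124% called). Unadjusted limma p-values were 0.00999 for Egr1, 0.00111 for Egr4 and 0.0879 for Npas4, and 55.5% of fitted genes were under 0.05. All fitted genes had been selected by p in these same samples. These p-values and that share are therefore not independent of the selection. The smallest two-sided p that an exact permutation test of 2 against 2 samples allows is 0.333, which Egr1 and Egr4 reached. For Npas4 the exact permutation p was 0.667.

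The Npas4 difference rested on single samples. The limma log2 difference of -0.67 shrank to -0.33 when SmoM2 replicate 2 was left out and to -0.29 when WT replicate 2 was. Leaving out SmoM2 replicate 1 gave -1.01, and leaving out WT replicate 1 gave -1.05. For Egr1 the difference ran from -0.47 to -0.28 with a sample left out, and for Egr4 from 0.53 to 0.70. Without SmoM2 replicate 1, in which most bulb genes were high and choroid plexus genes lowest, the values were -0.35 for Egr1 and 0.64 for Egr4.

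**Figure D2:**
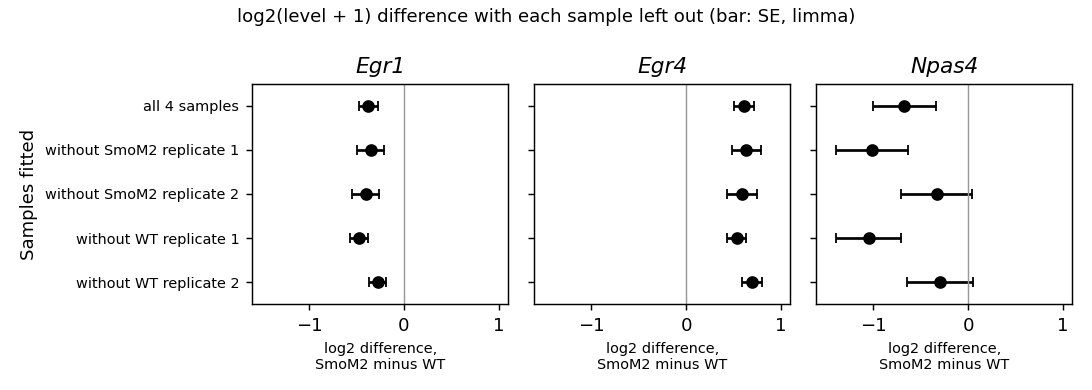
Difference in log2(level + 1), SmoM2 minus WT (x axis), for each of the 3 genes, fitted with all 4 samples and with each sample left out (y axis). Points are limma estimates and bars their SE; Egr1 and Egr4 stay on their own side of 0, and the bars of Npas4 reach 0 without SmoM2 replicate 2 and without WT replicate 2.

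Ratios of 2 genes within a library do not depend on how libraries are scaled, and were examined after the levels had been seen. The level of Egr1 was 1.65 and 1.66 times that of Egr4 in the SmoM2 samples, and 3.29 and 3.36 times in the WT samples. The ratio was thus nearly equal within each group. SmoM2 minus WT was -1.01 on the log2 scale, against SDs of 0.0060 in SmoM2 and 0.021 in WT (n = 2 each). The exact permutation p was 0.333, the smallest possible. With Egr1 lower and Egr4 higher without overlap, the ratio could not overlap and this p was fixed in advance. How even the ratios of other gene pairs are within a group was not examined. The log2 difference ran from -1.02 to -0.99 with a sample left out. Egr4 was 8.34 and 15.3 times Npas4 in SmoM2 and 5.36 and 3.36 times in WT, also without overlap. Egr1 was 13.7 and 25.3 times Npas4 in SmoM2 and 17.6 and 11.3 times in WT, and these overlapped. The order of levels, Egr1 above Egr4 above Npas4, held in all 4 samples.

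**Figure D3:**
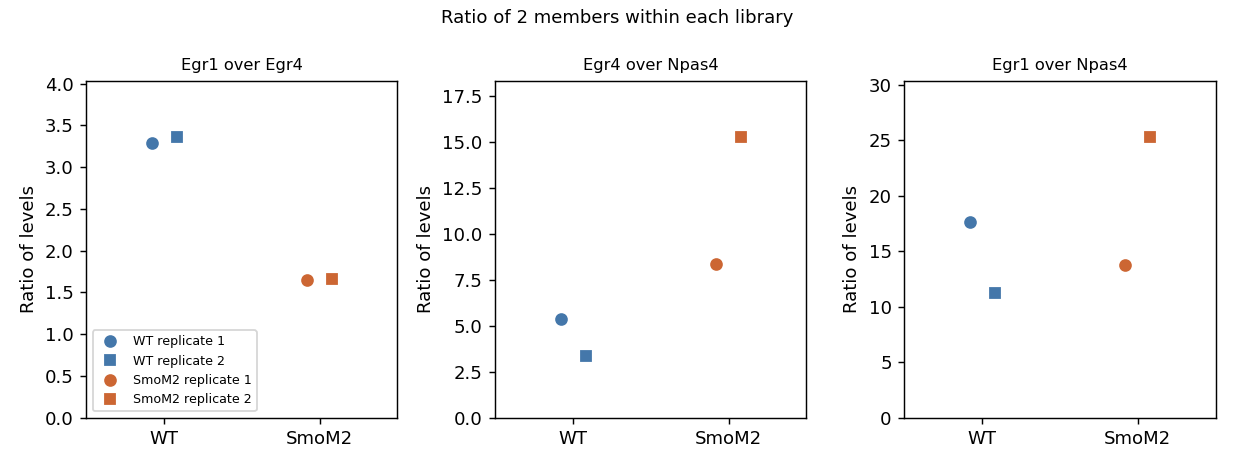
Ratio of levels within each library (y axis) for the 3 pairs of genes, with 1 point per sample in WT and SmoM2. Egr1 over Egr4 is close to 3.3 in both WT samples and to 1.65 in both SmoM2 samples, while Egr1 over Npas4 overlaps between the groups.

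Against the listed genes as a whole, Egr1 was expressed at a high level, with a mean above that of 87.1% of them. The mean of Egr4 was above that of 71.7% and that of Npas4 above 28.7%. Among genes that rose or fell, the size of the log2 fold change exceeded that of 25.5% for Egr1, 53.4% for Egr4 and 75.7% for Npas4. In the authors' deposited table Npas4 thus had the largest fold change of the 3. On the log2(level + 1) scale that order turned with a pseudocount of 5 (-0.43 for Npas4 and 0.56 for Egr4), and with SmoM2 replicate 2 or WT replicate 2 left out.

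The genes whose pattern over the 4 samples lay nearest were found by Euclidean distance of log2(level + 1), centred on each gene's mean, among genes averaging 5 or more. Nearest to Egr1 were Rdh14, Crnkl1, Itpr1, Tpp2 and Ccng1, at distances of 0.031 to 0.044. Itpr1, which encodes a calcium release channel of the endoplasmic reticulum, read 25.36 and 25.95 in SmoM2 against 31.4 and 35 in WT. Nearest to Egr4 were Nectin2, Gbf1, Lemd2, Ercc2 and Sema4g, at distances of 0.0070 to 0.042. Nectin2, a cell adhesion gene, read 19.79 and 20.27 in SmoM2 against 12.01 and 13.53 in WT. Nearest to Npas4 were Gm42732, 0610040B10Rik, 9330121K16Rik, Hlf and Tmem196, at distances of 0.11 to 0.24. Hlf, a PAR bZIP transcription factor gene, read 37.91 and 29.22 in SmoM2 against 41.05 and 65.3 in WT, and its limma log2 difference of -0.62 was -0.29 with WT replicate 2 left out and -0.95 with WT replicate 1 left out. None of the 3 genes was among the 5 nearest of another. Of 4008 genes, 3458 lay closer to Egr1 than Egr4 did and 2168 lay closer to Egr1 than Npas4 did. Seen from Npas4, 587 lay closer than Egr1 and 3412 closer than Egr4. Seen from Egr4, 3392 lay closer than Egr1 and 3910 closer than Npas4.

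Among 23 other immediate early transcription factors, 7 had a row, and all 7 were on the side of Egr4. Jund, Myc, Nr4a2, Klf2 and Jun rose, Klf4 and Maff did not pass, and none was lower. Of the 7, 71.4% passed, beside 37.3% of listed genes. Their log2 fold changes in the authors' deposited table had a median of 0.69, beside 0.23 for all listed genes, of which 46.8% were lower. Jund, an AP-1 subunit gene, read 274.15 and 252.84 in SmoM2 against 147.25 and 164.16 in WT. Its limma log2 difference was 0.76 ± 0.10 (SE), and its partner gene Jun read 36.48 and 37.83 against 27.24 and 27.94. For both, the 2 groups were well separated relative to the spread within them.

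Nr4a2, an orphan nuclear receptor gene, read 23.81 and 29.4 in SmoM2 against 17.54 and 11.17 in WT, and its limma log2 difference went from 0.87 to 0.57 without WT replicate 2. Myc, a growth-promoting factor, read 14.17 and 14.65 against 7.88 and 9.86. Klf2, a Krüppel-like factor, read 16.5 and 13.53 against 7.55 and 10.83, and went from 0.66 to 0.43 without WT replicate 1. Klf2 and the related Klf4 are also endothelial genes. Klf4 read 4.64 and 3.13 in SmoM2 against 1.89 and 2.76 in WT, and the adjusted p in the authors' deposited table was 0.138. Maff, a small Maf gene, read 1.81 and 2.41 against 1.35 and 0.7, at an adjusted p of 0.241 there. Of 8 endothelial markers 6 had a row, 4 higher and 2 lower. None of the 6 overlapped between groups, nor did 84.7% of all listed genes. Cdh5 and Cldn5, endothelial junction genes, rose with Klf2, at 11.95 and 8.29 in SmoM2 against 5.58 and 6.62 in WT for Cdh5, and 137.22 and 99.44 against 77.87 and 71.87 for Cldn5. With SmoM2 replicate 1 left out their limma log2 differences shrank from 0.63 to 0.39 and from 0.64 to 0.41. Ly6c1 fell, at 74.23 and 47.53 against 134.42 and 93.22, and so did Slco1a4, so the summed level of the 6 (270.5 and 191.2 against 260.7 and 219.8) covers opposite moves. With SmoM2 replicate 2 left out the limma log2 difference of Ly6c1 shrank from -0.90 to -0.59. No listed endothelial marker was at 0 in any sample. The part of endothelial RNA in the Klf2 and Klf4 values was not tested. The other 16 factors, Fos, Fosb, Junb, Egr2, Egr3, Nr4a1 and Nr4a3 among them, had no row and were not analysed here.

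Immediate early genes that encode effectors rather than transcription factors were mostly on the side of Egr1 and Npas4. Of 25, 8 had a row, 6 were lower and 2 higher, and Homer1 and Ptgs2 fell while Sik1 rose. The share that passed, 37.5%, was close to that of all listed genes, 37.3%. The share that was lower was 75%, beside 46.8% of listed genes. The log2 fold changes of the 8 in the authors' deposited table had a median of -0.31, beside 0.23 for all listed genes. Homer1, a postsynaptic scaffold gene with a short activity-induced isoform, read 51.84 and 45.94 in SmoM2 against 55.46 and 68.58 in WT. The table does not separate isoforms. Its limma log2 difference of -0.33 went to -0.18 without WT replicate 2. Ptgs2, which encodes cyclooxygenase-2, read 1.07 and 1.55 in SmoM2 against 2.47 and 2.53 in WT.

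Sik1, a salt-inducible kinase gene that restrains CREB coactivators, read 6.25 and 6.4 in SmoM2 against 3.77 and 3.68 in WT, with samples of a group nearly equal. Fbxo33, an F-box gene, read 9.42 and 10.16 against 14.07 and 12.64 and missed the threshold (adjusted p = 0.0563, authors' deposited table). Dusp1 and Dusp4, phosphatases that switch off MAP kinases, did not pass and lay on opposite sides. Dusp1 read 24.72 and 22.69 in SmoM2 against 25.96 and 31.22 in WT, and Dusp4 read 6.54 and 5.67 against 4.32 and 4.25. Btg2, an antiproliferative gene, read 10.54 and 8.63 against 10.61 and 12.2, and Sgk1, a kinase gene that glucocorticoids also induce, 36.17 and 42.98 against 45.79 and 43.81. The limma log2 difference of Dusp1 went from -0.26 to -0.13 without WT replicate 2, that of Btg2 from -0.23 to -0.10 without SmoM2 replicate 2, and that of Sgk1 from -0.18 to -0.06 without SmoM2 replicate 1. With WT replicate 2 left out the median limma log2 difference of the 8 was -0.16, beside -0.24 with all samples. Arc, Dusp5, Dusp6, Gadd45b and Plk2 were among the 17 effectors with no row, and were not analysed here.

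**Figure D4:**
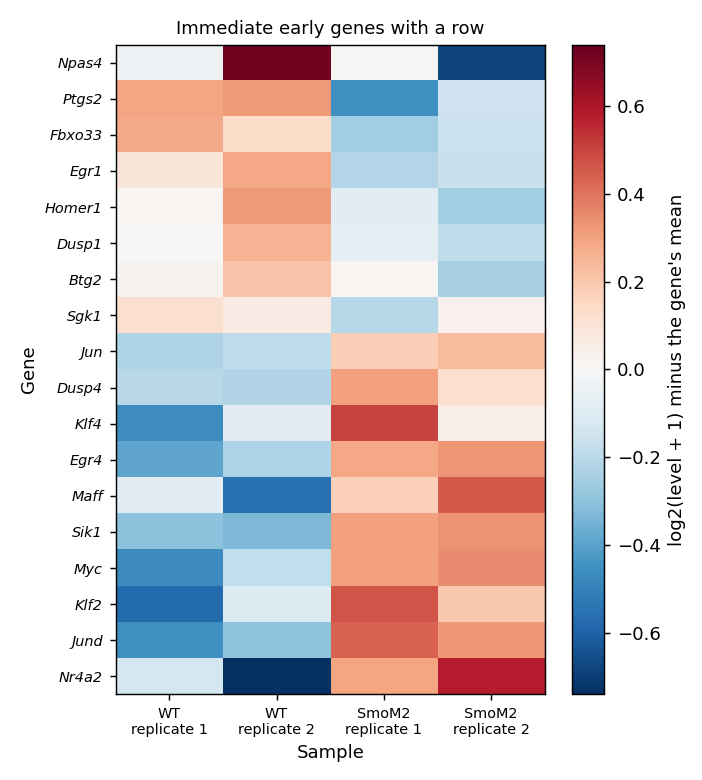
Level of the 18 immediate early genes with a row (y axis) in each of the 4 samples (x axis), as log2(level + 1) minus the gene's own mean. Egr1 and Npas4 sit with 6 effectors that are lower in SmoM2, and Egr4 with 7 transcription factors, Sik1 and Dusp4, which are higher.

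Across the 15 other immediate early genes with a row, 8 passed in the authors' deposited table, 6 that rose and 2 that fell, and the groups of all 15 were free of overlap. Over all listed genes 37.3% passed and 84.7% had no overlap. None of the 15 passed in the limma fit, where 10 had an unadjusted p under 0.05. Of these 15 genes, 12 had a promoter in the RefSeq table, of which 6 held TGACG in the 250 bases before the start, beside 17.8% of all windows. TGACGTCA was in 2 of the 12 (1.55% of all windows), GCGGGGGCG in 2 (2.57%) and TATATAA in 1 (3.04%). The CArG box (1.47%) and GCGTGGGCG (0.536%) were in 0 of the 12.

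Late response genes, which the immediate early factors and calcium signals induce afterwards, were mostly lower. Of 20, 9 had a row, 7 were lower and 2 higher, and 5 fell and 2 rose. Of the 9, 77.8% passed and 77.8% were lower, beside 37.3% and 46.8% of listed genes. The median of their log2 fold changes in the authors' deposited table was -0.37, beside 0.23 for all listed genes. Nrn1, which encodes the neurite outgrowth factor neuritin, read 157.27 and 165.95 in SmoM2 against 233.95 and 266.97 in WT, a limma log2 difference of -0.63 ± 0.10 (SE). Rgs4, a brake on G protein signalling, read 278.9 and 314.77 against 401.41 and 442.8, and Rasgrp1, a calcium-responsive activator of Ras, 119.36 and 132.55 against 163.86 and 182.82. In all 3 the SmoM2 samples lay below the WT samples, but the rule for naming these genes required groups without overlap.

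Pcsk1, a prohormone convertase gene, read 11.22 and 11.95 in SmoM2 against 15.67 and 17.07 in WT, and Nptx1, a neuronal pentraxin gene, 52.93 and 62.68 against 66.72 and 75.24. Vgf, a secreted neuropeptide precursor gene, went the other way and rose, at 257.68 and 290.37 in SmoM2 against 186.42 and 193.64 in WT. Penk, the proenkephalin gene, also rose by the authors' deposited table although its groups overlapped, at 108.91 and 208.73 against 145.86 and 61.87. Bdnf, a neurotrophin gene, read 8.65 and 8.85 in SmoM2 against 10.04 and 10.44 in WT and missed the threshold (adjusted p = 0.42, authors' deposited table), and Kcna1, a potassium channel gene, did not pass either. Leaving out SmoM2 replicate 1 took the limma log2 difference of Nptx1 from -0.29 to -0.17. That of Penk, 0.66, ranged from 0.05 with WT replicate 2 left out, through 0.19 with SmoM2 replicate 2 left out and 1.13 with SmoM2 replicate 1 left out, to 1.27 with WT replicate 1 left out.

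**Figure D5:**
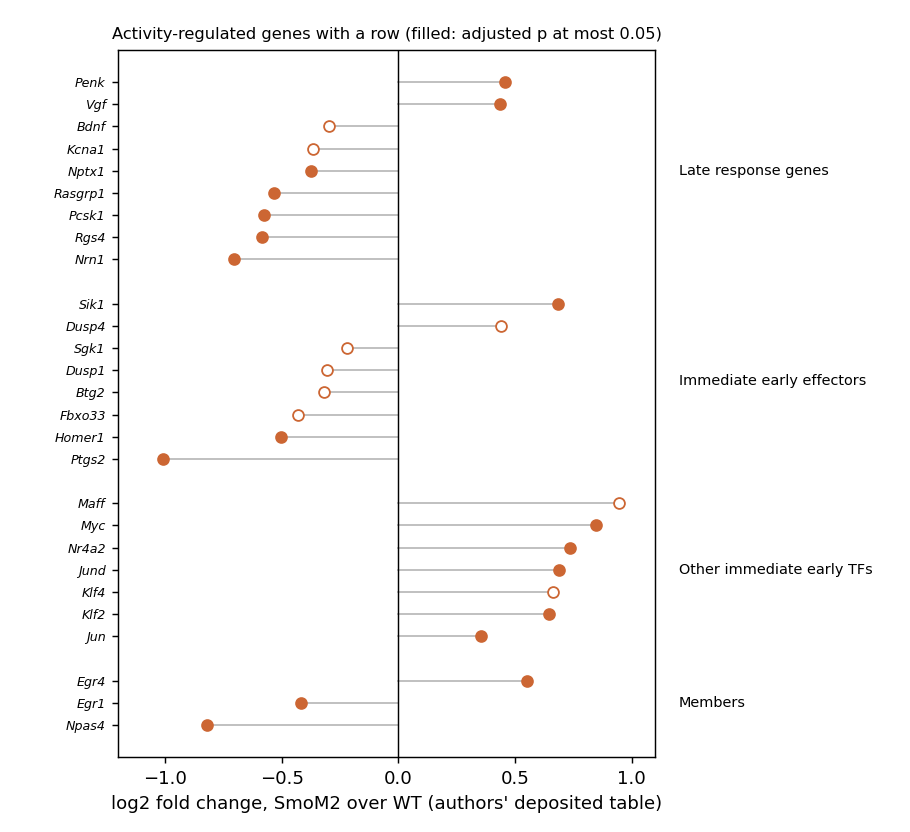
Log2 fold change, SmoM2 over WT, from the authors' deposited table (x axis) for each activity-regulated gene with a row (y axis), grouped by role, with filled points at an adjusted p not above 0.05. All 7 other transcription factors lie above 0, while 6 of 8 effectors and 7 of 9 late response genes lie below it.

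Genes that carry the signal to immediate early promoters moved in both directions. Of 37, 20 had a row, 4 rose and 7 fell, and 8 were higher and 12 lower. Of the 20, 55% passed and 60% were lower, beside 37.3% and 46.8% of listed genes. Grin2a, an NMDA receptor subunit gene, read 8.74 and 8.23 in SmoM2 against 11.19 and 16.47 in WT, and Ppp3ca, the calcineurin catalytic subunit gene, 336.69 and 396.27 against 442.05 and 508.96. Both fell, as did the kinase gene Braf, at 12.14 and 11.91 against 12.8 and 15.96. Mapk3, which encodes ERK1, read 277.24 and 299.49 in SmoM2 against 205.08 and 192.1 in WT, and Map2k2, its upstream kinase, 109.32 and 113.88 against 79.97 and 76.28. Srf, the factor that binds the CArG box, read 45.68 and 41.38 against 35.65 and 25.13. These last 3 rose. Without WT replicate 2 the limma fit put 13 of the 20 higher and 7 lower, so the balance of this list turned on that sample. Leaving it out also took the limma log2 difference of Grin2a from -0.62 to -0.36, that of Braf from -0.23 to -0.08 and that of Srf from 0.52 to 0.28, and leaving out WT replicate 1 took Braf to -0.38. Of 11 partners and regulators of EGR and NPAS4 proteins, such as Nab1, Nab2 and Arnt2, 0 had a row, and they were not analysed here.

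Markers of neurons, the main source of these transcripts in cortex, did not move as a block. Of 13 general neuronal markers 6 had a row, with summed levels of 6443 and 6470 in SmoM2 against 5355 and 5712 in WT. Of the 6, 3 rose and 2 fell, beside 21.3% and 16.0% of all listed genes. Snap25, a gene of transmitter release, fell, at 1285.19 and 1277.42 in SmoM2 against 1485.02 and 1793.62 in WT, and Tubb3, a tubulin gene of young neurons, rose, at 1124.99 and 1166.72 against 626.11 and 669.71. The limma log2 difference of Snap25 was -0.35 with all samples and -0.21 with WT replicate 2 left out. Of 14 excitatory neuron markers 6 had a row, and their sums overlapped, at 243.9 and 254.8 in SmoM2 against 244.4 and 261.6 in WT. These sums cover opposite moves, as 4 of the 6 were higher and 2 lower. None of the 6 overlapped between groups, nor did 84.7% of all listed genes. Neurod6 fell, at 82.12 and 83.12 in SmoM2 against 115.46 and 113.03 in WT. Cux2 rose, at 36.39 and 41.26 against 26.43 and 33.19. Of 14 inhibitory neuron markers 10 had a row, with sums of 1354 and 1506 in SmoM2 against 1256 and 1215 in WT. Sst was the largest part of these sums, at 708.63 and 816.36 in SmoM2 against 622.61 and 533.9 in WT. Of the 10, 7 were higher and 3 lower, the latter being Pvalb, Vip and Npy. No listed marker of the 3 lists was at 0 in any sample. The part of neuronal makeup in the Egr1, Egr4 and Npas4 results was not tested.

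Immediate early genes also respond to handling, and 2 of 8 heat shock genes had a row. Hspa8 and Hsp90aa1, both chaperone genes, did not pass, and their summed level was 2280 and 2300 in SmoM2 against 2318 and 2496 in WT. The other 6, Hspa1a, Hspa1b and Dnajb1 among them, had no row and were not analysed here. The time from death to freezing is absent from the labels, and its part was not tested.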

How the data were processed

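Samples were grouped by the labels, and each column was tied to its sample by the key in the series text. RSEM, DESeq2 and GRCm38.p6 are named without roles, per the submitters' processing notes. The authors deposited, for genes they had selected by p-value, an expression signal (level) per sample, the group means, the fold change (a ratio) with its log2, and raw and adjusted p-values. Their log2 fold changes differed from the log2 ratio of levels by a median of -0.08. The deposited adjusted p decided calls. limma 3.58.1 (R 4.3.3) with a mean-variance trend was fitted to log2(level + 1), which understates changes of low genes, for all genes averaging 1 or more, adjusted by Benjamini-Hochberg over 57010 tests. On simulated data for this comparison (4845 genes, 200 changed, noise SD 0.15, adjusted over the 4845), log2 changes of 0.5 were found for 50% of genes, and changes of 1 and 2 for 100%. The members and gene lists were chosen with earlier results of these data known. Named were the 3 members, every other immediate early gene with a row, up to 6 passing genes without overlap from other pathway lists and the 5 nearest patterns; other names (Penk, Bdnf, Kcna1 and markers) were chosen after their values were seen. Alternatives were other pseudocounts, scalings and filters, a replicate block and leaving out each sample.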

Additional observations from a re-analysis of the deposited data

How the results depend on the processing

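Egr1 and Npas4 stayed lower and Egr4 higher under all 12 alternatives, and none passed the limma threshold in any. Npas4 went from -0.67 to -0.43 with a pseudocount of 5 and to between -1.05 and -0.29 with a sample left out; its other values ran from -0.78 to -0.67. Scaling moved the median log2 difference of listed genes from 0.25 to 0.16 with equal medians and to 0.13 with quantile normalization, where Egr1 was -0.47 and -0.49 and Egr4 0.52 and 0.53. The 15 other immediate early genes kept their direction in all 177 refits, and 0 passed limma in the fits on all 4 samples. Where groups do not overlap, leaving out a sample, a pseudocount, a filter or the block cannot turn the direction. For Egr1, Egr4 and these 15 only the rescalings could have turned it. Genes called among all listed went from 6 to 0 with quantile normalization and with no filter, to 20 with the replicate block and to between 0 and 2 with a sample left out. Same-numbered samples did not deviate together (r = -0.09 over 4845 genes). With 2 samples a group this cannot exclude a shared litter or batch, which the labels do not give. With the block, log2 differences stayed -0.38, 0.61 and -0.67 for Egr1, Egr4 and Npas4, at adjusted p of 0.558, 0.293 and 1 (limma). With 2 samples a group and no read counts, small differences in low genes such as Npas4 cannot be resolved.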

Other observations

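Other lists give the setting in which the immediate early genes were read. Of 8 glucocorticoid-induced genes 6 had a row, and Mt1, Mt2, Tsc22d3 and Zbtb16 fell while Fkbp5 and Nfkbia did not pass. Mt2, a metallothionein gene, read 92.12 and 126.08 in SmoM2 against 496.4 and 419.92 in WT, and Tsc22d3, a mediator of glucocorticoid action, 55.01 and 60.07 against 76.8 and 71.31. Of 10 hypoxia and glycolysis genes 3 had a row, and Bnip3 fell while Pgk1 and Ldha did not pass. The limma log2 difference of Zbtb16 was -0.39, or -0.25 with SmoM2 replicate 2 left out, and that of Bnip3 was -0.14, or -0.09 with SmoM2 replicate 1 left out. All 5 blood genes fell, and 6 of the 8 choroid plexus genes fell, with the other 2 lower. For Ttr, the transthyretin gene, the size of the fall rested largely on SmoM2 replicate 1. Ttr was at 71.24 in that sample and at 618.04 in SmoM2 replicate 2, against 1202.66 and 1162.48 in WT. Its limma log2 difference, -2.48, was -0.93 with SmoM2 replicate 1 left out and -4.03 with SmoM2 replicate 2 left out.

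Mature oligodendrocyte markers fell in 10 of 10, and of 10 precursor markers 7 had a row, all higher, of which 3 rose. Of 8 meningeal fibroblast markers with a row, 8 rose. Of 5 pericyte and smooth muscle markers with a row 3 rose, and of 6 endothelial markers 3 rose and 2 fell. Of 5 astrocyte markers with a row 2 rose and 1 fell, and of 6 microglial markers 2 rose and 1 fell. Of the 8 olfactory bulb markers 6 rose and 1 fell, and the groups of 3 overlapped. Of 10 inhibitory neuron markers 6 rose and 3 fell, and of 6 excitatory neuron markers 1 rose and 1 fell. Over all listed genes 21.3% rose, 16.0% fell and 84.7% had groups without overlap.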
